A study of Mus musculus with 2 samples.

Results

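Toll-like receptors are pattern recognition receptors that bind microbial lipids, proteins and nucleic acids. The receptors at the cell surface, Tlr1, Tlr2, Tlr4 and Tlr6, sense bacterial lipoproteins and lipopolysaccharide, while Tlr7 and Tlr9 bind single-stranded RNA and CpG-rich DNA in endosomes. Unc93b1 carries the endosomal receptors out of the endoplasmic reticulum, Myd88 links nearly all of the receptors to kinases and NF-kB, and Cd180, a receptor homologue without a signalling tail of the Toll type, sits on B cells in a complex with the secreted protein Ly86. B cells use these receptors to respond to microbial products directly, in addition to their antigen receptor. The 10 genes Tlr1, Tlr2, Tlr4, Tlr6, Tlr7, Tlr9, Cd180, Ly86, Unc93b1 and Myd88 were described here across wild-type and Ccr7-deficient B cells. They were chosen by gene name: every probe that carries one of these names in the array files and is no control was taken. This gave 13 probes, and all 10 genes were among the 17686 genes tested.

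The B cells were sorted by flow cytometry from peripheral lymph nodes and their RNA was taken without culture. Wild-type cells came from C57BL/6J mice and Ccr7 knock-out cells from the strain B6.129P2(C)-Ccr7tm1Rfor/J, which carries a targeted allele of the chemokine receptor gene Ccr7 in all cells and may keep donor sequence around it. Of 12 sorted samples, 6 per genotype, the RNA was combined in pools of 3, and each of 2 two-colour arrays held 1 wild-type and 1 knock-out pool, with the knock-out in Cy5 on array 1 and in Cy3 on array 2. The age and sex of the mice, and the sort gate, are not given in the sources used here. Each array is 1 replicate, so n = 2 for every mean below. The SE and interval of a mean come from limma's fit, which draws the variance of each gene toward that of all genes tested. Of the degrees of freedom behind them, 1 comes from the gene's own 2 ratios and 6.18 from all genes. The spread they rest on is that between pool pairs and dye orientations, not that between mice. In such pools fewer cells of a type and less RNA per cell cannot be told apart.

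In the check of the genotypes, the log2 ratio of Ccr7 (knock-out divided by wild-type, as throughout) was -1.11 on array 1 and -0.74 on array 2. The mean was -0.93 with an SE of 0.145, and limma's adjusted p was 0.143. The targeted gene itself thus did not pass the test used below. It was not established whether the Ccr7 probe falls inside the targeted sequence. Between 58.4% and 68.8% of spots were well above background per channel, and 0 spots were saturated. All 8 B-cell markers examined, among them Cd79a, Cd79b, Ms4a1, Pax5, Cd22, Blk and Cr2, were well above background in both genotypes on both arrays. None of the 8 had an adjusted p under 0.05 by limma. At an unadjusted p of 0.05, 1 of the 8 was lower in the knock-out, Pax5, against 5.97% of all genes, and 0 were higher. Pax5 had log2 ratios of -0.79 and -0.86 and an adjusted p of 0.142 by limma. On both arrays 1 of the 8 was lower and 2 were higher, against 30% and 24.2% of all genes. None of the 13 probes of the 10 genes lies on chromosome 11, where Ccr7 is.

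Each transcript was read by 60-base oligonucleotide probes, whose sequences and positions on the mm8 build the array files give. The exon or untranslated region that holds each probe was not looked up. Bases 1 to 30 are printed, 5′ to 3′, for the genes that 2 different probes measured, because their probes gave different values, and for Tlr2 and Ly86, whose ratios stood farthest from those of the other receptors and partners.
Tlr4, probe A_51_P300806, chr4:66329051-66329109, plus strand: tgtgatagggctttaaatagttgagctaat
Tlr4, probe A_52_P24230, chr4:66415883-66415942, plus strand: gaaccaagagaactttaacgcttacatctg
Cd180, probe A_52_P237087, chr13:103824504-103824563, plus strand: ctatcatctgacacatagtacttcataaac
Cd180, probe A_52_P258617, chr13:103826571-103826630, plus strand: gcacttgctcaaacatttactttttagaat
Unc93b1, probe A_52_P507382, chr19:3949081-3949140, plus strand: agcctggggtcacctggaacttcctccaag
Unc93b1, probe A_51_P301975, chr19:3943608-3943667, plus strand: agctgcccttcaaacacgtgcgtgactcac
Tlr2, probe A_51_P452629, chr3:83922349-83922408, minus strand: ccttggatgaaggccagcaggaagtgtttt
Ly86, probe A_51_P465350, chr13:37426298-37426357, plus strand: cctgagtagtcttgaagccctattgtagta
Over their full length no pair of the 13 probes shared a run of more than 8 bases, in 78 pairs compared on the same strand. The probes of the close relatives Tlr1 and Tlr6, neighbours 28250 bases apart on chromosome 5 (starts at 65204011 and 65232261), shared a run of 5 bases at most. The probes of Tlr7 (chromosome X, 162649362 to 162649421), Tlr9 (chromosome 9, 106084749 to 106084808) and Myd88 (chromosome 9, 119184902 to 119184961) complete the set.

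In these B cells, no difference between the genotypes was called for any of the Toll-like receptors or partners. None of the 10 passed limma's test at a Benjamini-Hochberg adjusted p of 0.05, where 0.102% of all genes did (0.0679% higher and 0.0339% lower in the knock-out). At an unadjusted p of 0.05, 1 of the 10 passed, Tlr2, which was lower. Of all genes 9.11% did so, 5.97% lower and 3.15% higher. Each gene was represented by its brightest probe. The lowest mean log2 ratio was -0.34, for Tlr2 and Cd180, and the highest was 0.21, for Ly86. The median over the 10 genes was -0.02, beside -0.01 over all genes tested. Tlr2, Tlr6 and Cd180 were lower in the knock-out on both arrays, which is 3 of 10 against 30% of all genes. None was higher on both arrays, against 24.2% of all genes. The arrays thus gave 1 direction for 3 of the 10 genes, against 54.2% of all genes, and disagreed in sign for 7. The 18 genes that passed among all tested had mean log2 ratios of at least 1.13 in size, larger than the mean of any of the 10. The targeted gene Ccr7 also missed the threshold. A p that misses the threshold does not show that the genotypes were alike. The 95% interval of the mean of each of the 10 genes is therefore given below.

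**Figure D1:**
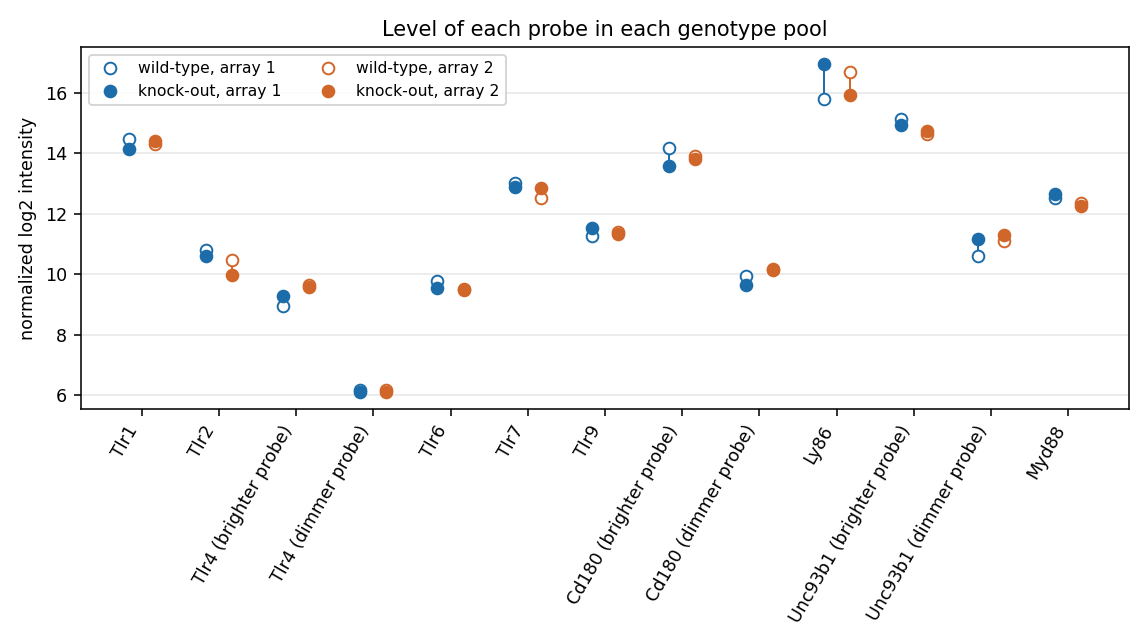
Normalized log2 intensity (y axis) of the 13 probes (x axis) in the wild-type pool (open circles) and the knock-out pool (filled circles) of array 1 (blue) and array 2 (orange), joined by a line within an array. Both genotypes lie close together for most probes, the wild-type and knock-out of Ly86 swap order between the arrays, and the dimmer Tlr4 probe lies near 6 in every pool.

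Among the receptors at the cell surface, Tlr2, which pairs with Tlr1 or Tlr6 to bind bacterial lipoproteins, stood farthest from equality. Its normalized log2 intensity was 10.82 in the wild-type and 10.62 in the knock-out pool on array 1, and 10.48 and 9.99 on array 2. The knock-out was the lower of the pair on both arrays, and the lower of its levels, on array 2, lay under both wild-type levels, while its level on array 1 lay between them. The mean log2 ratio was -0.34 ± 0.14 (SE, n = 2), a 1.27-fold lower level, with a 95% interval from -0.67 to -0.02. The unadjusted p of limma's fit was 0.0408 and the adjusted p 0.518. At position 1390 of 17686 genes in order of unadjusted p, it did not pass.

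Macrophages and granulocytes also carry Tlr2, so markers of these cells were read beside it. Of 14 such markers 11 were tested and none passed, while S100a8 and Mertk were not well above background in either genotype on both arrays and Ly6g had no probe of that name. Of the 11, 1 was lower in the knock-out on both arrays, as Tlr2 was, against 30% of all genes. Higher on both were 4 of the 11, against 24.2% of all genes. The one that was lower was the macrophage gene Adgre1, with log2 ratios of -0.29 and -1.14, and the 4 were C1qa, C1qb, Fcgr1 and S100a9, the last of them barely above 0 on array 2. The median over the 11 was 0.17. Lyz2, which encodes a lysozyme, had 1.22 and -0.60. The summed normalized intensity of the 11 markers was 5801 in the wild-type and 10510 in the knock-out on array 1, and 10240 and 7036 on array 2, a sum that Lyz2 weighs on most. The part of these cells in the Tlr2 value was not tested. Of 9 dendritic cell markers 6 were tested and none passed, with summed intensities of 1324 and 1890 in the wild-type and 1451 and 1958 in the knock-out, and Clec9a, Siglech and Cd209a were not well above background. Of 9 T-cell markers 8 were tested and none passed. At an unadjusted p of 0.05, 4 of these 8 were lower (Cd3d, Cd8a, Thy1 and Il7r), against 5.97% of all genes. Il7r entered the test by its wild-type signal alone. In the knock-out it was not well above background on either array, so the filter favoured a lower value for it. On both arrays 5 of the 8 markers, Il7r included, were lower and 1, Cd8b1, was higher, against 30% and 24.2% of all genes. The median log2 ratio of the 8 was -0.24 on each array. Their sums, 2910 and 2890 in the wild-type and 2943 and 2628 in the knock-out, rest largely on Cd8b1. All 9 markers of marginal zone and B1 cells were tested and none passed. At an unadjusted p of 0.05, 3 were lower (Spn, Zbtb32 and Cd9) against 5.97% of all genes, and 1 was higher (S1pr3) against 3.15%. Spn had log2 ratios of -0.54 and -0.83, Zbtb32 of -0.81 and -0.56, Cd9 of -0.63 and -0.27, and S1pr3 of 0.47 and 0.40. The sums of the 9, 95830 and 80190 in the wild-type and 93280 and 79530 in the knock-out, rest largely on Plac8, Dtx1 and Cd1d1. The part of T cells and of these B-cell subsets in the values of the receptors was not tested.

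Tlr1 was 14.48 in the wild-type and 14.13 in the knock-out on array 1, and 14.30 and 14.40 on array 2, in normalized log2 intensity. The order of the genotypes turned between the arrays. Its mean log2 ratio was -0.13, with a 95% interval from -0.48 to 0.23 and an adjusted p of 0.908 by limma. Tlr6, the partner of Tlr2 for diacylated lipoproteins, was 9.79 in the wild-type and 9.54 in the knock-out on array 1. On array 2 it was 9.52 and 9.47, so the knock-out was lower on both arrays. The gap on array 2, a log2 ratio of -0.06, was small, and the mean of -0.16 had an interval from -0.47 to 0.16 and an adjusted p of 0.834 by limma.

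Tlr4, the lipopolysaccharide receptor, had opposite signs on the arrays. Its brighter probe was 8.94 in the wild-type and 9.28 in the knock-out on array 1, and 9.63 and 9.57 on array 2. The wild-type level differed more between the arrays than the genotypes did on either array, and both knock-out levels lay between the wild-type levels. The mean log2 ratio was 0.14, with an interval from -0.21 to 0.49 and an adjusted p of 0.889 by limma. The other probe named Tlr4 starts 86832 bases away on the same chromosome and was not well above background in either genotype on either array, with a normalized log2 intensity between 6.10 and 6.19 in all 4 pools. It was kept out of the test and says nothing about a difference.

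**Figure D2:**
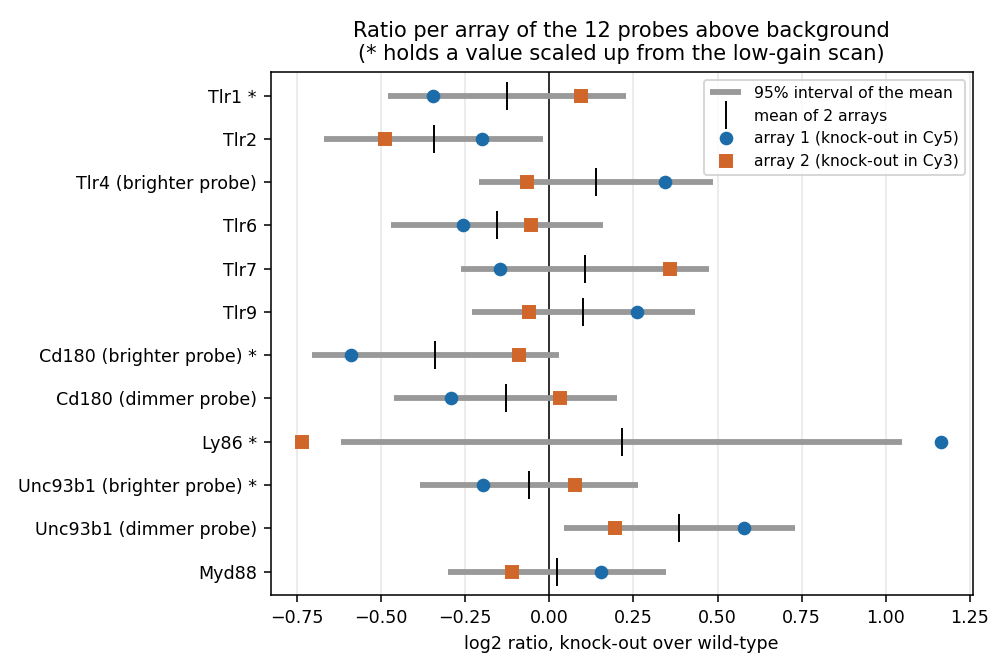
Log2 ratio, knock-out to wild-type, (x axis) for the 12 probes above background (y axis) on array 1 (blue circles) and array 2 (orange squares), with the mean (black tick) and its 95% interval (grey bar) from the fit with each probe as a row of its own, which differ slightly from the intervals per gene in the text. The interval leaves out 0 for Tlr2 and for the dimmer Unc93b1 probe, before any adjustment for the number of probes, and Ly86 has by far the widest spread between arrays of the 12.

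The endosomal receptors also turned between the arrays. Tlr7, the receptor for single-stranded RNA, was 13.02 in the wild-type and 12.87 in the knock-out on array 1, and 12.51 and 12.86 on array 2, in normalized log2 intensity. Both knock-out levels lay within the range of the wild-type levels. The mean log2 ratio was 0.11, with an interval from -0.27 to 0.48 and an adjusted p of 0.941 by limma. Tlr9, the receptor for CpG-rich DNA, was 11.27 in the wild-type and 11.53 in the knock-out on array 1, and 11.41 and 11.35 on array 2. Its mean of 0.10 had an interval from -0.23 to 0.43 and an adjusted p of 0.934. The interval of Tlr7 leaves room for a level up to 1.39-fold higher in the knock-out.

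Unc93b1, the chaperone of the endosomal receptors, gave different answers by probe. Its brighter probe, which stands for the gene, was 15.14 in the wild-type and 14.94 in the knock-out on array 1, and 14.65 and 14.73 on array 2. The order turned between the arrays, the mean log2 ratio was -0.06 with an interval from -0.38 to 0.26, and the adjusted p was 0.969 by limma. The dimmer probe, which starts 5473 bases away and was designed on a partial transcript of the gene from another mouse strain per the file's annotation, was 10.59 and 11.17 on array 1, and 11.11 and 11.31 on array 2. By this probe the knock-out was higher on both arrays, with log2 ratios of 0.58 and 0.20 and a mean of 0.39. With each probe as a row of its own its unadjusted p was 0.0315 and its adjusted p 0.449 by limma, so neither probe passed. The scanner read each slide at a high and a low gain, and the brightest spots take their value from the low-gain reading after rescaling. The brighter probe had such rescaled values on both arrays, and the dimmer one had none.

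Myd88, the shared adaptor, lay nearest to equality of the 10. It was 12.51 in the wild-type and 12.67 in the knock-out on array 1, and 12.37 and 12.26 on array 2. The mean log2 ratio was 0.02, and the 95% interval from -0.30 to 0.34 spans a level 1.23-fold lower to 1.27-fold higher in the knock-out. Its adjusted p was 0.989 by limma.

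Cd180 was lower in the knock-out on both arrays by its brighter probe. That probe was 14.18 in the wild-type and 13.59 in the knock-out on array 1, and 13.91 and 13.82 on array 2, so both knock-out levels lay below both wild-type levels. The log2 ratios were -0.59 and -0.09, the mean was -0.34 ± 0.16 (SE, n = 2) with an interval from -0.71 to 0.03, and the adjusted p was 0.59 by limma. On array 1 only the wild-type channel of this spot had a rescaled low-gain value, and array 1 gave the larger ratio, while on array 2 neither channel did. The part of the rescaling in the value was not tested. The dimmer probe, 2067 bases away and at normal gain in every channel, was 9.93 in the wild-type and 9.64 in the knock-out on array 1, and 10.13 and 10.16 on array 2. Its ratios were -0.29 and 0.03, so by this probe the knock-out was the lower on array 1 alone. Its mean of -0.13 had an adjusted p of 0.869 by limma with each probe as a row of its own.

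Ly86, the secreted partner of Cd180, had the largest gap between the arrays of the 10 genes. It was 15.79 in the wild-type and 16.96 in the knock-out on array 1, and 16.67 and 15.94 on array 2. In each array the pool labelled with Cy5 was the brighter one. The log2 ratios of 1.16 and -0.73 gave a mean of 0.21 ± 0.38 (SE, n = 2), with an interval from -0.67 to 1.10 and an adjusted p of 0.957 by limma. Both ratios lie outside this interval, because the fit draws the SE toward the spread of all genes. All 4 channels of the spot had rescaled low-gain values. The B-cell markers, 7 of 8 of which had such values, had the same signs: the log2 ratio of their summed intensity was 0.81 on array 1 and -0.67 on array 2. Among the 1769 genes of the brightest decile, 73 had opposite signs and a gap at least as wide as that of Ly86, and in all 73 array 1 was the higher. On the deposited value table, the ratios of Ly86 were 0.23 and -0.32. The ratio of Ly86 thus has no settled sign to set beside that of Cd180.

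Rescaled low-gain values occurred in 4 of the 10 genes, Tlr1, Cd180, Ly86 and Unc93b1, and in 1628 of all 17686 genes. Opposite signs were found for 3 of these 4 genes and for 4 of the 6 without. Over all genes, 872 of 1628 with a rescaled value and 7225 of 16058 without had opposite signs.

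**Figure D3:**
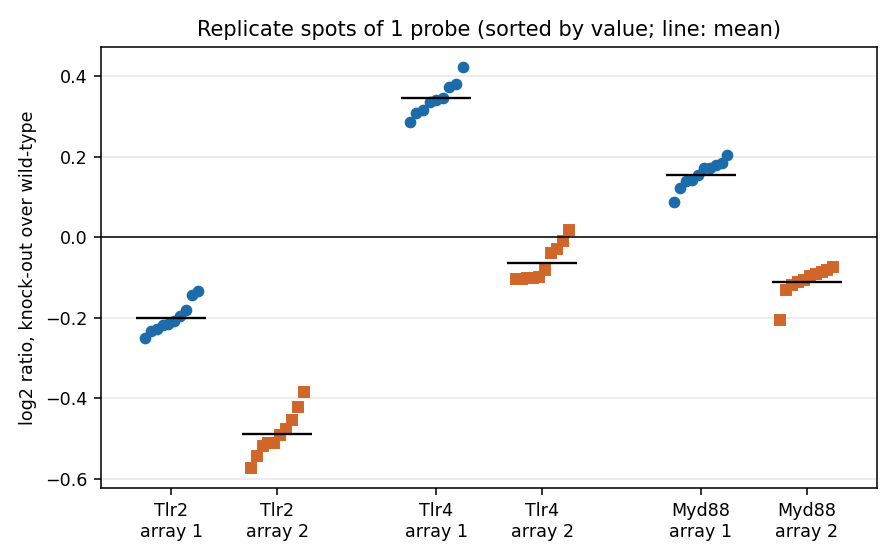
Log2 ratio, knock-out to wild-type, (y axis) of each spot used of the Tlr2, Tlr4 and Myd88 probes, sorted by value within an array (x axis), with the mean as a line. The spots of array 1 (blue circles) and array 2 (orange squares) do not overlap for any of the 3 probes.

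The probes of Tlr2, Tlr4 and Myd88 were printed 10 times on each array, which shows the spread between spots. Each spot repeats the same hybridisation and is no further replicate of a genotype. For Tlr2 the 10 spots of array 1 ranged from -0.25 to -0.13 with a median of -0.21, and those of array 2 from -0.57 to -0.38 with a median of -0.50. All 20 spots were below 0, and the ranges of the arrays did not overlap. For Tlr4 the 9 spots used on array 1 ranged from 0.29 to 0.42 with a median of 0.34, and the 10 of array 2 from -0.10 to 0.02 with a median of -0.09. For Myd88 the spots ranged from 0.09 to 0.20 on array 1 and from -0.21 to -0.07 on array 2. The SD between spots lay between 0.034 and 0.056 for the 3 probes, whereas the means of the arrays were 0.29 (Tlr2), 0.41 (Tlr4) and 0.27 (Myd88) apart. Of all 150 probes above background with 10 or more spots, 56% had ranges that did not overlap between the arrays, and their median gap between arrays was 0.21. The gaps of the 3 genes were above that median. Pool pair and dye orientation changed together between the arrays, so which of them the gap follows cannot be told apart.

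**Figure D4:**
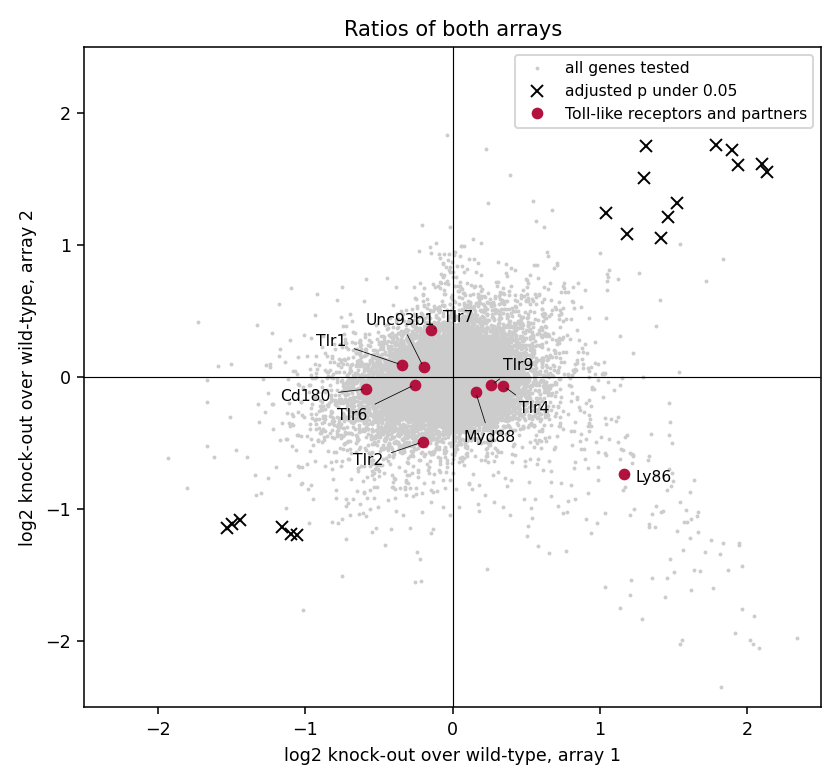
Log2 ratio, knock-out to wild-type, on array 1 (x axis) and array 2 (y axis) for all 17686 genes tested (grey), the 18 genes past the adjusted p of 0.05 (crosses) and the 10 Toll-like receptors and partners (red). All of the 10 but Ly86 lie inside the central cloud, Ly86 lies in the corner of opposite signs, and 3 genes lie beyond the plotted range.

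Other genes of the pathway were read in the same way. Apart from the 10 genes themselves, 66 distinct genes of 6 lists were tested and none passed in limma's fit over all genes, with a lowest adjusted p of 0.0977. At an unadjusted p of 0.05, 9 of 66 passed (13.6%), against 9.11% of all genes. On both arrays 17 were higher and 19 were lower, against 24.2% and 30% of all genes. Opposite signs were found for 30, against 45.8% of all genes. The median of the 66 was -0.02.

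Of 6 other Toll-like receptors, 2 were tested and none passed. Tlr3, the receptor for double-stranded RNA, had log2 ratios of -0.25 and 0.59, and Tlr5, the flagellin receptor, had 0.09 and -0.17. Tlr5 entered the test by its wild-type signal alone. In the knock-out it was well above background on 1 array only, so the filter favoured a lower value for it. Tlr8 was not well above background in either genotype on either array, and Tlr11, Tlr12 and Tlr13 had no probe of those names. Of 13 cofactors, chaperones and endosomal proteases, 12 were tested and none passed. Their median was 0.02, and 1 of the 12 was lower at an unadjusted p of 0.05, against 5.97% of all genes. Ctss, a cathepsin that trims endosomal receptors, had 1.47 and -0.69 on the arrays, with rescaled low-gain values, and Cd36, a lipid scavenger receptor that assists Tlr2, had -0.26 and -0.38. Ly96, the cofactor through which Tlr4 binds lipopolysaccharide, had a mean of 0.10.

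Of 24 adaptors, kinases and ligases of the signalling chain, 23 were tested and none passed. Their median was -0.02, and 1 of the 23 was lower at an unadjusted p of 0.05, against 5.97% of all genes. Tab1 and Tab2, which bind the kinase Map3k7, had mean log2 ratios of -0.36 and -0.30, each lower on both arrays. Of 12 inhibitors of the pathway all were tested and none passed. Their median was -0.04, and 1 of the 12 (Rnf216) was lower at an unadjusted p of 0.05, against 5.97% of all genes. Rnf216, a ubiquitin ligase, had -0.75 and -0.18 on the arrays, and Sigirr, a decoy-like receptor of the family, had -0.29 and -0.14. Among 5 interleukin 1 family receptors that also signal through Myd88, 3 were tested and none passed. Il1rap had a mean of 0.22 and Il18r1 of -0.13. Il18r1 entered the test by its wild-type signal alone. In the knock-out it was well above background on 1 array only, so the filter favoured a lower value for it.

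Genes that Toll-like receptor ligands are known to induce in B cells went both ways. Of 17 listed, Tlr2 among them, 16 were tested and none passed. At an unadjusted p of 0.05, 3 of the 16 were higher, Cd83 and Cd69 among them, against 3.15% of all genes. Lower were 4 of the 16 (Ccl3, Nfkbid, Ccl4 and Tlr2), against 5.97% of all genes. The median of the list was -0.02. Ccl3, an inflammatory chemokine, had log2 ratios of -1.33 and -0.89 on the arrays. The mean was -1.11 with an SE of 0.15, and limma's adjusted p was 0.0977. The probes of Ccl3 and Ccl4 lie on chromosome 11, 15.5 Mb from that of Ccr7, so donor sequence and the loss of Ccr7 cannot be told apart for them.

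**Figure D5:**
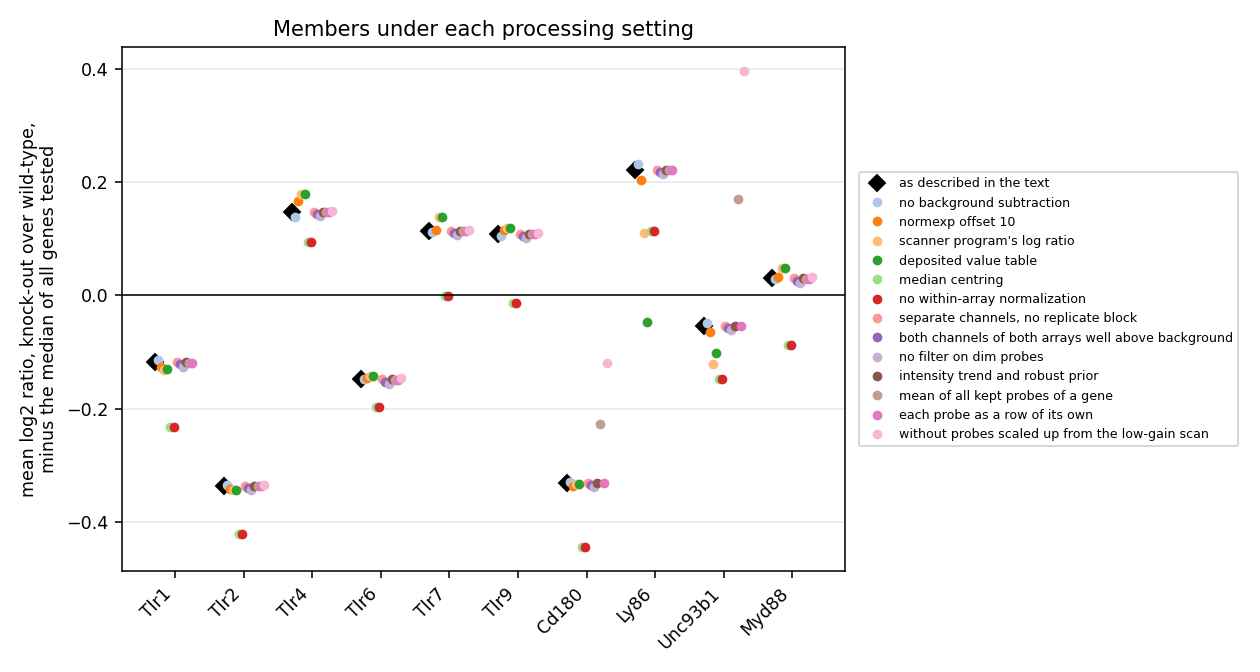
Mean log2 ratio, knock-out to wild-type, minus the median of all genes tested (y axis) for each of the 10 genes (x axis) under the processing described in the text (black diamonds) and 13 other settings (coloured circles). Tlr1, Tlr2, Tlr6 and Cd180 lie below 0 and Tlr4 above it in every setting drawn, while Ly86, Unc93b1, Tlr7, Tlr9 and Myd88 cross 0.

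Across 13 other processing settings with a test, none of the 10 genes passed either, with a lowest adjusted p of 0.301. Relative to the median of all genes in each setting, Tlr2 lay between -0.42 and -0.33, Cd180 between -0.45 and -0.12, Tlr6 between -0.20 and -0.14 and Tlr1 between -0.23 and -0.11. Tlr4 lay between 0.10 and 0.18. Cd180 was nearest to 0, at -0.13 before the median was taken off, where probes with rescaled values were left out and its dimmer probe stood for the gene. The settings share the same 2 arrays, so their sameness of sign is no separate evidence.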

How the data were processed

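Spots were quantified in Agilent Feature Extraction 9.5.3.1, per the submitters' processing notes, and the authors deposited intensity values (mean signal and median local background per dye). Per the file headers, probe positions are on mm8 and both scanner gains were combined into 1 signal. The scanner program's log10 ratio (Cy5 to Cy3), deposited beside them, was corrected for background and dye. The deposited value table holds log2 ratios. With the knock-out as numerator it equalled that ratio within 0.001 at 42512 and 42515 of 43379 spots, and the others carry the low-gain flag.

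From the intensities, background was corrected with normexp (offset 50) and ratios were normalized by loess with limma 3.58.1 (R 4.3.3), using a span of 0.3, 4 iterations and no weight for the 1639 controls. This offset draws the ratios of faint spots nearer to 0. Outlier spots were left out and spots of a probe averaged. Probes were kept where 1 genotype was well above background on both arrays, in a share of at least 0.5 of its spots. Each gene was represented by its brightest probe. Of 41174 probes, 24375 were named by RefSeq accession (GRCm38.p6 table), 6301 by symbol and 2426 by synonym. Levels per channel were scaled between arrays by Aquantile. Levels of different probes were not compared.

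Oriented ratios were fitted with lmFit and eBayes (1 residual and 6.18 prior degrees of freedom), two-sided, with Benjamini-Hochberg adjustment over all 17686 genes. An exact sign-flip test with 2 arrays cannot go below p = 0.5. Nothing in the sources used here says whether the pools held separate mice, so the p-values may measure technical spread only. The genes, lists and settings were chosen with earlier results of these data known. From each list the counts are given, and the members past the threshold or, where none passed, the 2 with the largest mean difference. Ly96, Tlr8 and markers named beside a result were chosen after their values were seen. A gene of the ligand-induced list that the naming rule covers is not reported here.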

Additional observations from a re-analysis of the deposited data

How the results depend on the processing

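The number of arrays, 2, limits the precision. The count of 18 genes past the threshold fell to 0 in 6 settings: separate channels with no replicate block, the deposited value table, the mean of probes, the scanner's own log ratio, unsubtracted signals, and ratios not normalized within arrays. It was 4 with median centring, 9 where all 4 channels had to be above background, 31 with each probe as a row, 73 with an intensity trend and robust prior, and 127 without probes rescaled from low gain. The cause was not tested. The count of the 10 genes past it was 0 in all of these. The median of the 10 (-0.02) was 0.062 both with the mean of probes and without rescaled probes, where other probes entered for Cd180 and Unc93b1 (and Tlr1 and Ly86 had none). From 1 array alone it ranged from -0.17 to -0.062. Median centring and no within-array normalization moved the median of all genes to -0.17 and -0.39 and that of the 10 to -0.29 and -0.51. Under them, in that order, the sign turned for Tlr4 (-0.079, -0.30), Tlr7 (-0.17, -0.39), Tlr9 (-0.19, -0.41), Ly86 (-0.061, -0.28) and Myd88 (-0.26, -0.48). Relative to the median of all genes, Tlr4 and Ly86 stayed above 0 there. Ly86 also turned on the deposited value table (-0.046). Unc93b1 turned with the mean of probes (0.16) and without rescaled probes (0.39).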
